A study of Mus musculus with 6 samples.

Results

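The vomeronasal type 1 receptors of the mouse are listed in these data under symbols that begin with Vmn1r and a number, and every such row was taken, whatever its value. This gave 234 of the 55421 rows, with 233 symbols, since Vmn1r216 stands under 2 gene identifiers. RNA-seq was done on the cerebral cortex of 3 male C57BL/6J mice of 6 months (mice 10, 11 and 17) and 3 of 24 months (mice 2, 4 and 5), all wild type (WT), on a standard diet and given isoflurane for anesthesia. Each library came from the cortex of 1 mouse, so that all cell types of the tissue are mixed in it. The question asked of these rows was how many receptor genes and how many reads each library holds, and how evenly the reads spread over the family.

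V1R proteins are receptors of the cell membrane that couple to the G protein subunit encoded by Gnai2 and, through phospholipase C and the channel Trpc2, excite neurons in the apical layer of the vomeronasal organ. A mature neuron there uses a single or few receptor genes of the family. The receptors detect pheromones and other cues of the animal's own or other species, and most of their ligands are unknown. The genes stand in dense clusters, many of which arose by recent duplication, and they are not known as genes of the cerebral cortex.

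The family spans 9 sequences of GRCm38 in the GENCODE vM21 annotation, in which all 234 identifiers were found, 24 of them under another symbol. Chromosome 7 holds 124 members, chromosome 6 holds 52, chromosome 13 holds 37 and chromosome 17 holds 14, and the 7 others lie on chromosomes 1, 4, 18 and X and on the scaffold GL456219.1. The annotation gives 232 as protein coding, 1 as a polymorphic pseudogene and 1 as an unprocessed pseudogene. Their coding sequences have a median of 921 bases, while the exonic length runs from 888 to 18544 bases, since 159 members carry annotated untranslated exons and 75 have only the coding part and its stop codon. Over the family 24.5% of the 884.569 exonic kb is coding. A read can thus be assigned to most members by their untranslated exons, but to the short members only by coding sequence.

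A single stretch does not measure how much of that coding sequence is private to a gene, but it gives an example of the sharing. Printed are the first 69 coding bases, the length of a read after trimming. They are taken from 3 members with high counts and from a pair that is identical over the whole coding sequence. Each is followed by the member whose coding sequence is closest to it, in the 5′ to 3′ direction, with the bases that differ within a pair in capitals.
Vmn1r100: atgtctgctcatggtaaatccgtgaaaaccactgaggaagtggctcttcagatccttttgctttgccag
Vmn1r148: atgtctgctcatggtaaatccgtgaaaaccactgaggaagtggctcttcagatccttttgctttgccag
Vmn1r55: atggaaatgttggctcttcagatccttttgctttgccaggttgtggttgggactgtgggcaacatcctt
Vmn1r59: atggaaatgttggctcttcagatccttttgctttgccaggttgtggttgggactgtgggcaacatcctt
Vmn1r46: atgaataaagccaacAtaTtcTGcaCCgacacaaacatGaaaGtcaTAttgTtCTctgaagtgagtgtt
Vmn1r44: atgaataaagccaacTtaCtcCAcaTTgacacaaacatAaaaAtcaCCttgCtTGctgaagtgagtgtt
Vmn1r90: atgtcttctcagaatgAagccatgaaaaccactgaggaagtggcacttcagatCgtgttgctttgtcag
Vmn1r177: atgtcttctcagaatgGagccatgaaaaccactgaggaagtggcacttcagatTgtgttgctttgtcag

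These stretches were read from the GENCODE vM21 transcripts. On GRCm38 they lie at chr7:20417942-20418010 (plus strand) for Vmn1r100, chr7:22413583-22413651 (plus) for Vmn1r148, chr7:5147354-5147422 (minus) for Vmn1r55 and chr7:5454691-5454759 (minus) for Vmn1r59. Those of Vmn1r46 and Vmn1r44 lie on the plus strand at chr6:89976171-89976239 and chr6:89893274-89893342, and those of Vmn1r90 and Vmn1r177 on the minus strand at chr7:14562103-14562171 and chr7:23866381-23866449. Vmn1r100 and Vmn1r148 have the same 69 bases, as have Vmn1r55 and Vmn1r59, whose whole coding sequences are 92.2% identical. Vmn1r90 and Vmn1r177 differ at 2 positions and Vmn1r46 and Vmn1r44 at 13. Over the family, 36 members have a coding sequence identical to that of another member and 108 are at least 95% identical to one, with a median identity to the closest member of 94.2% over the 231 members compared.

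The 6 libraries held 29495379 to 36494240 counts each, of which 6480 in all fell on Vmn1r rows. At 6 months the family had 375, 517 and 479 counts in mice 10, 11 and 17. At 24 months it had 2036, 1839 and 1234 counts in mice 2, 4 and 5, although the totals of these libraries were lower. The ages did not overlap, and mouse 5 was the lowest of its age. In a bulk sample, fewer cells of a type and less RNA per cell cannot be told apart, and here the same holds for more of either. Scaled to 1000000 counts per library (CPM), the family made up 11.2, 14.2 and 13.8 at 6 months and 69.03, 56.8 and 37.6 at 24 months. The means were 13.04 ± 1.61 and 54.5 ± 15.8 CPM (SD, n = 3 mice), a ratio of 4.18. The exact permutation test (two-sided) gave p = 0.1, below which a comparison of 3 with 3 mice cannot go. With the authors' TPM, which divide by exonic length, the family summed to 9.40 ± 1.28 and 37.7 ± 10.5 TPM, and the highest value of any member in any library was 0.691 TPM. The labels name no batch, and one that followed age could not be told apart from it.

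**Figure D1:**
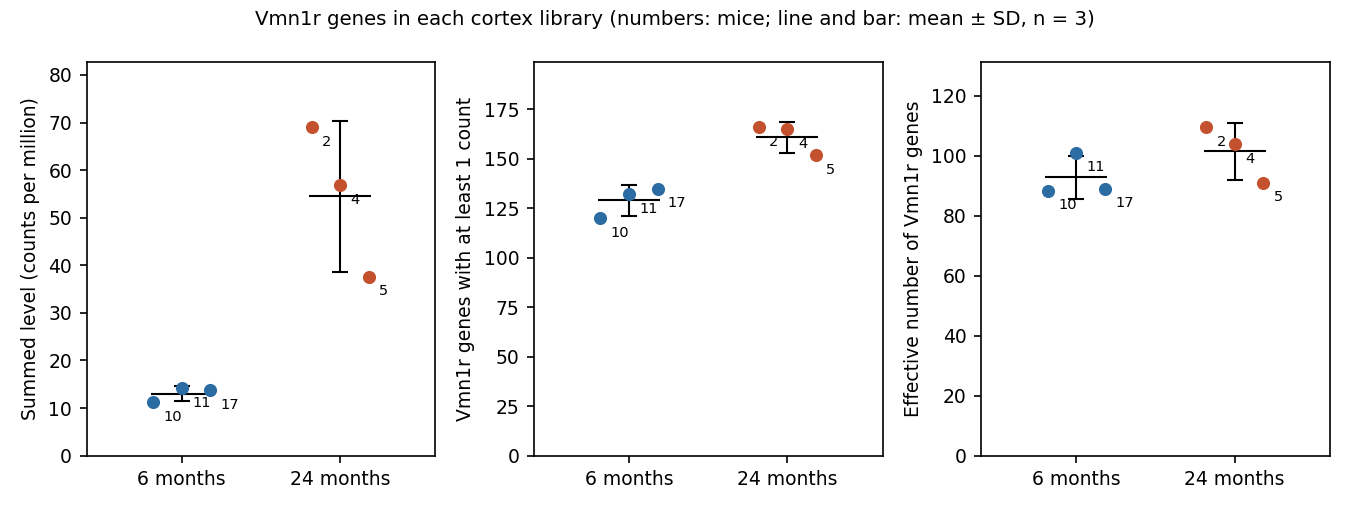
The 3 panels plot the summed Vmn1r level in CPM, the number of Vmn1r genes with at least 1 count, and the effective number of genes, with 1 point per mouse (number beside it) and the mean ± SD of the 3 mice of an age. The first 2 measures do not overlap between ages, while the effective numbers do, since mouse 5 at 91.1 lies below mouse 11 at 101.0.

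At least 1 count was present on 120, 132 and 135 Vmn1r genes in mice 10, 11 and 17, and on 166, 165 and 152 in mice 2, 4 and 5. The means were 129 ± 7.94 and 161 ± 7.81 genes (SD, n = 3 mice), with no overlap of the ages (two-sided exact permutation test, p = 0.1). The difference between the means was 32 genes at 1 count or more, 68 at 3 or more and 65.3 at 10 or more. Their ratio grew with the minimum asked for, from 1.25 to 2.00 and 10.8. At least 10 counts were present on 3, 9 and 8 genes at 6 months and on 92, 80 and 44 genes at 24 months. The median count of a member was 1 in each 6-month library and 6, 5 and 3 in the 24-month mice 2, 4 and 5. Members with exactly 1 count numbered 40, 32 and 36 at 6 months and 12, 17 and 11 at 24 months. In single libraries 1 count more or less therefore decides for many members whether they are listed as present.

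The number of genes present followed the number of Vmn1r counts. When each library was reduced by formula to the 375 Vmn1r counts of mouse 10, the expected numbers were 120, 121 and 126 genes at 6 months and 128, 126 and 124 genes at 24 months. The ages then overlapped, with a difference of 3.56 genes between the means (exact permutation test, two-sided, p = 0.2). Reducing each library instead to the smallest library total, 29495379 counts, left 115, 125 and 129 genes at 6 months and 166, 163 and 151 at 24 months. A total of 97 members had a count in all 6 libraries, 25 had counts at 24 months alone, 4 had a count at 6 months alone, and 54 had none in any library.

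No single receptor dominated any library. The highest member took 3.73%, 2.71% and 3.97% of the Vmn1r counts at 6 months (14 counts on Vmn1r13 in mouse 10, 14 on Vmn1r46 in mouse 11 and 19 on Vmn1r55 in mouse 17). At 24 months it took 2.31%, 2.50% and 3.81% (47 counts on Vmn1r18 in mouse 2, 46 on Vmn1r90 in mouse 4 and 47 on Vmn1r55 in mouse 5). The 10 highest members of a library held 24.8%, 22.2% and 25.7% of its Vmn1r counts at 6 months and 18.6%, 19.8% and 23.3% at 24 months. To reach 50% of the counts took 26, 33 and 30 members at 6 months and 41, 38 and 34 at 24 months.

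Evenness was measured as the effective number of genes, the number of equally counted genes that would give the same probability that 2 counts fall on the same gene. It was 88.4, 101.0 and 89.1 in mice 10, 11 and 17 and 109.6, 104.0 and 91.1 in mice 2, 4 and 5. The means were 92.9 ± 7.10 and 101.5 ± 9.49 (SD, n = 3 mice), and the ages overlapped (exact permutation test, two-sided, p = 0.2). The form of the index used does not depend on the number of counts. The exponential of the Shannon entropy, which does, was 97.5 ± 6.49 and 119 ± 7.23 and did not overlap (p = 0.1 in the same exact permutation test).

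**Figure D2:**
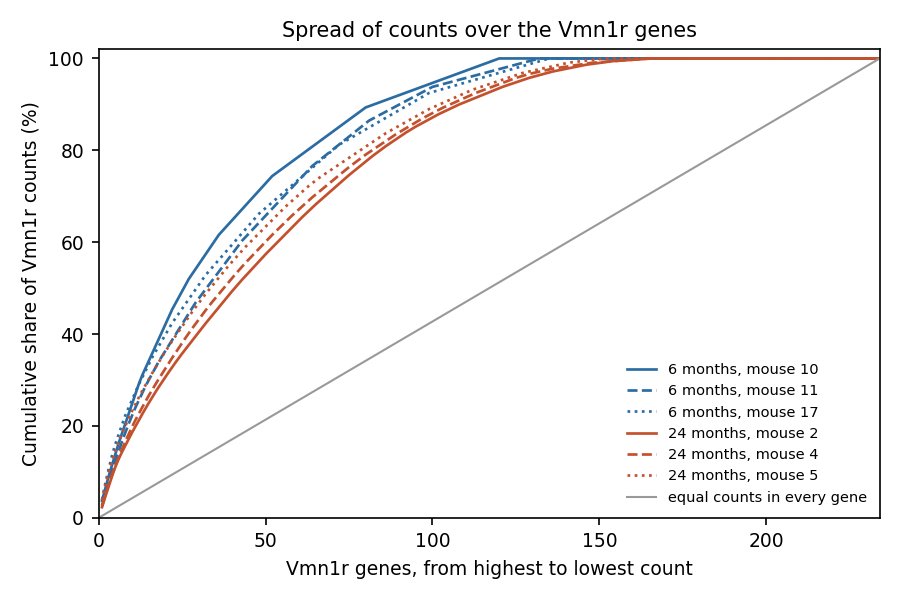
Vmn1r genes are ordered on the x axis from the highest to the lowest count within each library, and the y axis gives the cumulative share of the library's Vmn1r counts in percent, with 1 line per mouse and a grey line for equal counts in all 234 genes. All 6 curves bend above the grey line, and the 10 highest genes hold between 18.6% and 25.7% of the counts.

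The counts lay on long members. Rank correlations between a member's count and its exonic length were 0.76, 0.85 and 0.78 at 6 months and 0.92, 0.91 and 0.88 at 24 months, over 234 genes that share each library and its depth (Spearman's rho, a description across genes). To measure sequence sharing, each annotated transcript of the 232 members with a sequence was cut into windows of 69 bases, and the share of windows found in no other gene's transcripts was computed. With the exonic length multiplied by this share, the rank correlations were 0.78, 0.86, 0.80, 0.95, 0.94 and 0.91 in the same order. If all Vmn1r counts of a library had been spread in proportion to unique length, 130, 141, 138, 167, 166 and 160 genes would be expected with at least 1 count, beside 120, 132, 135, 166, 165 and 152 observed. In proportion to exonic length alone, 150, 168, 164, 224, 221 and 208 genes would be expected. The effective number of genes for a spread by unique length is 113.7, above the 88.4 to 109.6 observed.

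**Figure D3:**
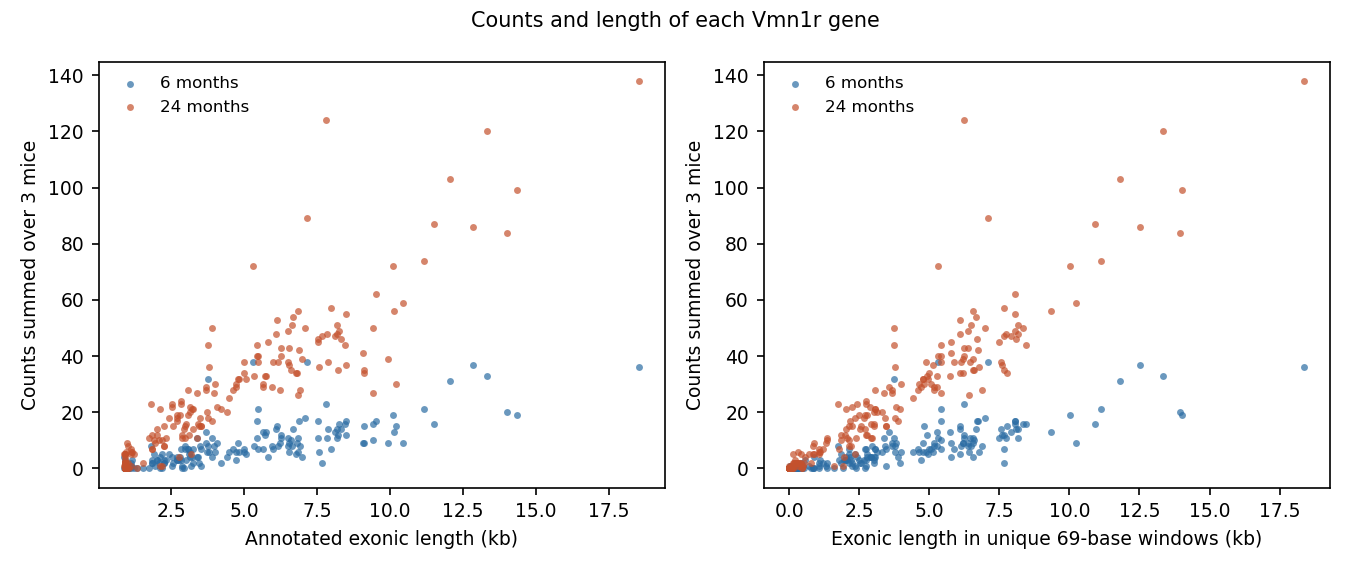
Both panels plot the counts of each Vmn1r gene summed over the 3 mice of an age (blue, 6 months; red, 24 months) on linear axes, against the exonic length on the left and the length in unique 69-base windows on the right, in kb. Counts increase with length at both ages, and the point farthest to the right is Vmn1r55 with 18544 exonic bases.

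Members whose windows were nearly all shared had almost no counts. Of the 40 members with under 1% unique windows, 39 had no count in any library, and the class had 1 count in all. Of the 36 members with 1% to 50% unique windows, 12 had no count. Of the 22 members with 50% to 80%, 1 had none, and all 38 members with 80% to 95% and all 96 members with 95% or more had counts. The class with 95% or more held 70.7% of all Vmn1r counts on 59.1% of the exonic length.

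Per exonic kb, the class with 95% or more unique windows had a density of 0.0148, 0.0201 and 0.0191 CPM per kb at 6 months and 0.0925, 0.0746 and 0.0524 at 24 months. The class from 1% to 50% had 0.00345, 0.00507 and 0.00864 CPM per kb at 6 months and 0.0267, 0.0172 and 0.0113 at 24 months, below the former class in each library. Within the class of 95% or more, the density was also taken by length. Members of 1 to 3 kb had a mean density of 0.0152 CPM per kb at 6 months and 0.0683 at 24 months, those of 3 to 6 kb had 0.0201 and 0.0764, those of 6 to 9 kb had 0.0168 and 0.0702, and those over 9 kb had 0.0183 and 0.0762. The only member of this class under 1 kb, Vmn1r194 with 9 counts in all, had 0.0434 and 0.0597. Over the single members of this class the middle 50% of mean densities lay between 0.0120 and 0.0215 CPM per kb at 6 months (median 0.0156) and between 0.0614 and 0.0800 at 24 months (median 0.0692).

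The 54 members without a count comprised 50 on chromosome 7, 2 on the scaffold GL456219.1, 1 on chromosome 13 and 1 on chromosome X. None of them was longer than 1326 exonic bases, and 37 of the 52 with a sequence had no unique window at all. Among the 36 members with an identical twin, 34 had no count. The exceptions were the longer of the 2 Vmn1r216 rows with 45 counts, within which the other lies, and Vmn1r245 with 1. By symbol order the first members without a count were Vmn1r100, Vmn1r101, Vmn1r103, Vmn1r107 and Vmn1r111, all on chromosome 7, of 918 to 924 exonic bases and with 0% to 8.12% unique windows. A count of 0 on such a row limits only the reads that could be placed on it: the methods ask for a mapping quality of at least 15, and the aligner gives reads with several positions a lower one. The stated options also divide reads with several positions among them, yet the deposited counts are whole numbers, so how such reads were counted is not settled here. Whether these genes were transcribed cannot be read from these counts.

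For the comparison of ages, a row needed 10 or more counts over all libraries, and edgeR's quasi-likelihood test was run on TMM-scaled counts. This left 139 members among 32905 rows, and 95 members with 158 counts together were not tested. Of the 139, 88 reached 10 counts only with their 24-month libraries, so that a higher level at 24 months was in part built into their choice, and their counts support nothing on their own. At 1% FDR (Benjamini-Hochberg over all rows tested) 0 members were called in either direction, as were 0% of all rows. The smallest adjusted p of a member was 0.0312. By an unadjusted p under 0.05 of this test, 111 members were higher and 0 lower at 24 months, beside 17.6% and 13.1% of all rows tested. At 10% FDR, 87 members were higher and 0 lower, beside 10.0% and 8.33% of all rows. All libraries of 24 months were above all of 6 months for 106 members and below for 0, beside 20.0% and 16.3% of all rows.

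The call at 1% FDR depended on the test. edgeR's likelihood ratio test called 51 members higher and 0 lower (4.41% and 0.766% of all rows), edgeR's exact test 37 and 0 (2.84% and 0.574%), and the Wald test of DESeq2 6 and 0 (0.34% and 0.349%). The calls at 10% FDR also rested on the libraries entered. The quasi-likelihood test called 0 members without mouse 10, 0 without mouse 11, 36 without mouse 17, 3 without mouse 2, 0 without mouse 4 and 99 without mouse 5. Shares of all rows called in these fits are not given here, so these counts cannot be set against all genes. Over the 139 members the log2 fold change ran from 0.39 to 5.24 with a median of 1.87, beside 0.15 over all rows tested. Scaled by library totals alone, these medians were 2.06 and 0.34. With each 6-month sum set to at least 3 counts, the median log2 ratio of pooled CPM was 2.06.

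Members were also taken by their 6-month counts alone, which cannot favour a higher level at 24 months. The 51 members with at least 10 counts over the 6-month libraries had 882 counts there and 2824 at 24 months. All 51 had a higher pooled CPM at 24 months, by 1.52- to 6.02-fold with a median of 3.68-fold, and for 41 of them all 24-month libraries were above all 6-month libraries. In the quasi-likelihood fit over all rows, 36 of the 51 were higher at 10% FDR and 43 were higher by an unadjusted p under 0.05. Of the 24093 rows of all genes chosen in the same way, 11.8% had no overlap in this direction, 5.27% were higher at 10% FDR and 9.33% by the unadjusted p. Over all 234 members, 176 had a higher pooled CPM at 24 months, 4 a higher one at 6 months with 1 count each, and 54 had no count.

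Vmn1r55 (chr7:5129291-5149670, minus strand) had the most counts of any member and the longest exons. It had 6, 11 and 19 counts at 6 months against 47, 44 and 47 at 24 months, with no overlap between ages. The quasi-likelihood test of edgeR gave a log2 fold change of 1.89 ± 0.34 (SE) and an adjusted p of 0.0518. An exon of Gm47692 overlaps it, and no source used here states that reads were counted by strand.

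Vmn1r46 (chr6:89969313-89986721, plus strand), of which every window was unique and which overlaps no other gene, had 9, 14 and 10 counts at 6 months against 45, 35 and 40 at 24 months. The mice within each age lay close together, and the ages were far apart (log2 fold change 1.81 ± 0.28, adjusted p = 0.0514 in the quasi-likelihood test). Vmn1r44, its closest member by coding sequence and printed beside it above, had 15 counts over the 6 libraries on 2162 exonic bases.

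Vmn1r90 (chr7:14555474-14563506, minus strand) had the smallest p of the family. Its counts were 7, 6 and 10 at 6 months and 42, 46 and 36 at 24 months. The ages were far apart again, with a log2 fold change of 2.37 ± 0.30 and an adjusted p of 0.0312 in the quasi-likelihood test. Its reads can also come from Nlrp5-ps, which overlaps an exon, and 79.8% of its windows were unique. Vmn1r177, its closest member, had 0 counts on 930 exonic bases.

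The other 7 of the 10 members with most counts were Vmn1r229 on chromosome 17, Vmn1r179, Vmn1r81 and Vmn1r80 on chromosome 7, and Vmn1r43, Vmn1r18 and Vmn1r13 on chromosome 6. Their exons span 5315 to 14362 bases. In each of them all 24-month counts were above all 6-month counts. Vmn1r229 had 8, 9 and 14 counts at 6 months against 45, 33 and 25 at 24 months. Vmn1r18 had 4, 8 and 7 counts against 47, 29 and 23, and Vmn1r80 had 8, 5 and 3 against 27, 43 and 17, so that both varied more among the old mice than Vmn1r55 or Vmn1r46. Vmn1r81 had 5, 10 and 5 counts against 26, 29 and 29, with little spread at 24 months. Vmn1r42 overlaps exons of Vmn1r43, and Vmn1r-ps64 those of Vmn1r80.

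The 10 smallest p-values of the family, all from the quasi-likelihood test with adjusted p between 0.0312 and 0.0518, added Vmn1r183, Vmn1r193, Vmn1r230 and Vmn1r16 to these. Vmn1r183 had 4, 6 and 7 counts at 6 months against 21, 20 and 21 at 24 months, and an exon of Gm36694 overlaps it. Vmn1r193 had 3, 4 and 4 against 16, 27 and 13 counts, and Vmn1r230 had 4, 2 and 5 against 19, 16 and 16. All 3 rest on 7 counts or fewer per library at 6 months. Vmn1r16 reached 10 counts only with its 24-month libraries, so that a higher level there was in part built into its choice.

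Vmn1r89 and Vmn1r85 belong to the few members with known ligands and respond to sulfated estrogens, cues in female urine. Vmn1r89 had 2, 3 and 1 counts at 6 months against 13, 7 and 5 at 24 months, and Vmn1r85 had 6, 9 and 3 against 14, 22 and 14. The ages did not overlap for either. Their log2 fold changes were 1.96 ± 0.63 and 1.41 ± 0.43, with adjusted p of 0.0825 and 0.0742 in edgeR's quasi-likelihood test. Vmn1r89 reached 10 counts only with its 24-month libraries, so that a higher level there was in part built into its choice. Gm45436 and Gm4270 overlap Vmn1r85.

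The 25 members with counts at 24 months alone had few of them. Vmn1r204 led with 7, 5 and 2 counts in mice 2, 4 and 5 and none at 6 months. Against a floor of 3 counts over the 6-month group it was at least 5.17-fold higher at 24 months, while the exact 95% counting interval of its ratio reaches down to 3.67. Next came Vmn1r175 with 6, 2 and 3 counts and Vmn1r8 with 3, 5 and 3, each at least 4.06-fold higher against the same floor. Vmn1r64 had 2, 6 and 1 counts and Vmn1r23 had 3, 3 and 2, at least 3.32- and 2.95-fold higher. The counting intervals of these 4 reach down to between 1.89 and 2.78. All members named here were chosen for having no count at 6 months and the most at 24 months. A higher level at 24 months was thus built into their choice, and their ratios support nothing on their own. Of the members tested, 139 had a positive and 0 a negative fitted log2 fold change, beside 58.4% of all rows with a positive one.

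Over all members pooled, the CPM at 24 months was 4.13 times that at 6 months, with an exact 95% counting interval from 3.89 to 4.38, which covers counting error only and not the spread between mice. The same interval for a single member held 4.13 for 132 of the 139 members tested, lay below it for 5 and above it for 2. With few counts per member many of these intervals are wide, and 88 of the 139 were tested only through their 24-month counts, so an interval that holds 4.13 does not show that a member had the ratio of the family. The 7 whose intervals do not hold it were chosen by their values and are given without a test. They make up 5.04% of the 139, near the share that 95% intervals miss by counting error alone. It is thus not shown that any of the 7 differs from the family.

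Of these 7, Vmn1r4 (chr6:56924015-56958100, plus strand) had the lowest ratio, with 10, 12 and 10 counts at 6 months against 15, 11 and 18 at 24 months. The ages overlapped, and its ratio was 1.52 with an interval from 0.944 to 2.48. Vmn1r13 had 14, 12 and 12 counts against 21, 25 and 26, a ratio of 2.10 with an interval from 1.40 to 3.20. These 2 genes and Vmn1r179, with 8, 13 and 17 counts against 28, 41 and 20, had the highest densities at 6 months among the members with at least 95% unique windows. These were 0.0815, 0.0684 and 0.0506 CPM per exonic kb, beside the median of 0.0156. At 24 months the same genes had 0.125, 0.143 and 0.132, also above the median of 0.0692 there. A choice by a low ratio favours members with a high 6-month value. Vmn1r43 and Vmn1r211 were the other two below the family ratio, at 2.57 and 2.11.

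On the upper side stood Vmn1r16 with 0, 2 and 2 counts at 6 months against 16, 21 and 8 at 24 months, a ratio of 12.5 with an interval from 4.54 to 47.7. Vmn1r236 had 0, 0 and 2 counts against 26, 12 and 9, a ratio of 26.02 with an interval from 6.81 to 221. Both had over 99% unique windows, on 5813 and 7676 exonic bases, but 4 and 2 counts at 6 months leave their ratios wide.

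**Figure D4:**
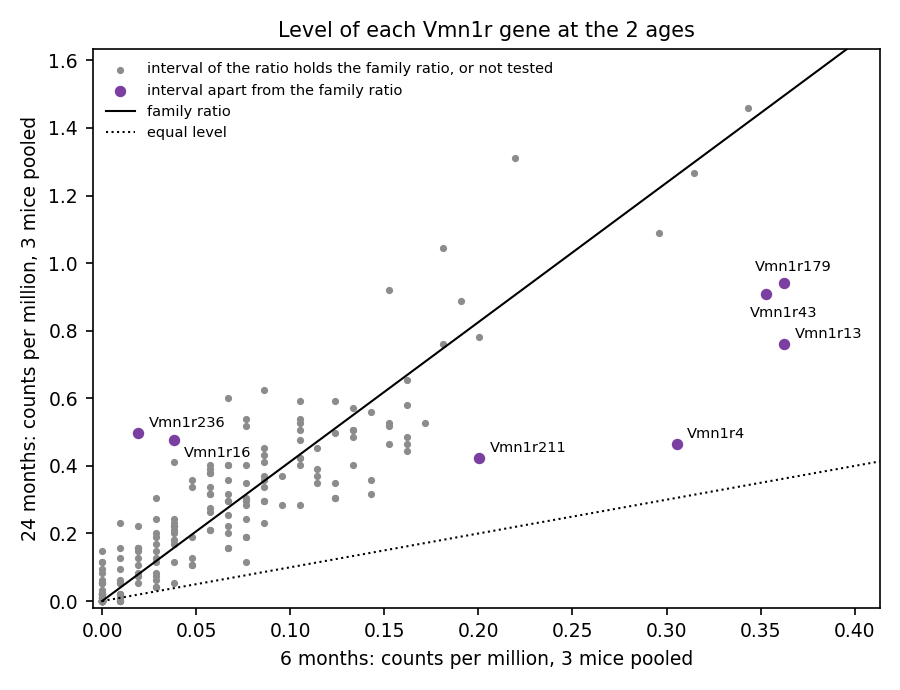
Each point is a Vmn1r gene, with the pooled CPM of the 3 mice of 6 months on the x axis and of 24 months on the y axis (linear scales), a solid line at the family ratio of 4.13 and a dotted line of equal level. The points scatter about the solid line, and the 7 named genes (purple) have counting intervals that do not hold it.

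Each of the 4 large chromosomal groups took part. On chromosome 7 the density was 0.0124, 0.0139 and 0.0136 CPM per exonic kb at 6 months and 0.0672, 0.0613 and 0.0393 at 24 months, a ratio of means of 4.21. Chromosome 6 had 0.0175 ± 0.00206 and 0.0703 ± 0.0183 (SD, n = 3 mice, ratio 4.02), chromosome 13 had 0.0141 ± 0.00365 and 0.0614 ± 0.0254 (ratio 4.35), and chromosome 17 had 0.0168 ± 0.00391 and 0.0713 ± 0.0186 (ratio 4.25). On none of the 4 did the ages overlap (two-sided exact permutation test, p = 0.1 each and 0.1 after adjustment over the 4). Chromosome 7 had the lowest mean density at both ages, and its median member had 30.6% unique windows, against 97.4%, 95.9% and 100% on chromosomes 6, 13 and 17.

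The difference between ages was as large without the 32 members that overlap another annotated gene. Their density was 0.0169 ± 0.00286 CPM per exonic kb at 6 months against 0.0671 ± 0.0177 at 24 months (n = 3 mice), and that of the other 202 members was 0.0141 ± 0.0015 and 0.0599 ± 0.018. The ratios were 3.98 and 4.25.

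To place the family among others that are not known as cortical genes, the same densities were taken for type 2 vomeronasal receptors (Vmn2r, 124 rows with a length), odorant receptors (Olfr, 1116 rows) and keratin-associated proteins with beta-defensins (Krtap and Defb, 101 rows), chosen by symbol. At 6 months the Vmn1r density of 0.0147 ± 0.00182 CPM per exonic kb was below the 0.0239 ± 0.00258 of Vmn2r, the 0.0236 ± 0.00124 of Olfr and the 0.0183 ± 0.00161 of Krtap and Defb (SD, n = 3 mice). At 24 months Vmn1r had 0.0616 ± 0.0179, Vmn2r 0.0704 ± 0.0164, Olfr 0.0801 ± 0.0211 and Krtap and Defb 0.065 ± 0.019. All 4 were higher at 24 months, by 4.18, 2.94, 3.39 and 3.55 times.

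On the log2 scale the Vmn1r density relative to Vmn2r was -0.70 ± 0.11 at 6 months and -0.21 ± 0.10 at 24 months. Relative to Olfr it was -0.69 ± 0.12 and -0.39 ± 0.06. In neither did the ages overlap (two-sided exact permutation test, p = 0.1, adjusted p = 0.15 over 3 comparators). Relative to Krtap and Defb it was -0.31 ± 0.27 and -0.07 ± 0.04, and mouse 17 of 6 months, at -0.08, lay among the 24-month values (p = 0.2, exact permutation test, adjusted p = 0.2). Without the 10 rows with most counts in each family, the differences between ages of 0.49, 0.30 and 0.24 became 0.13, 0.09 and -0.07, with p of 0.3, 0.2 and 0.8 in the exact permutation test. A larger age ratio of Vmn1r genes than of the other families was thus not resolved. The families also differed in rows without any count, which were 23.1% of Vmn1r, 4.84% of Vmn2r and 0.269% of Olfr rows.

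**Figure D5:**
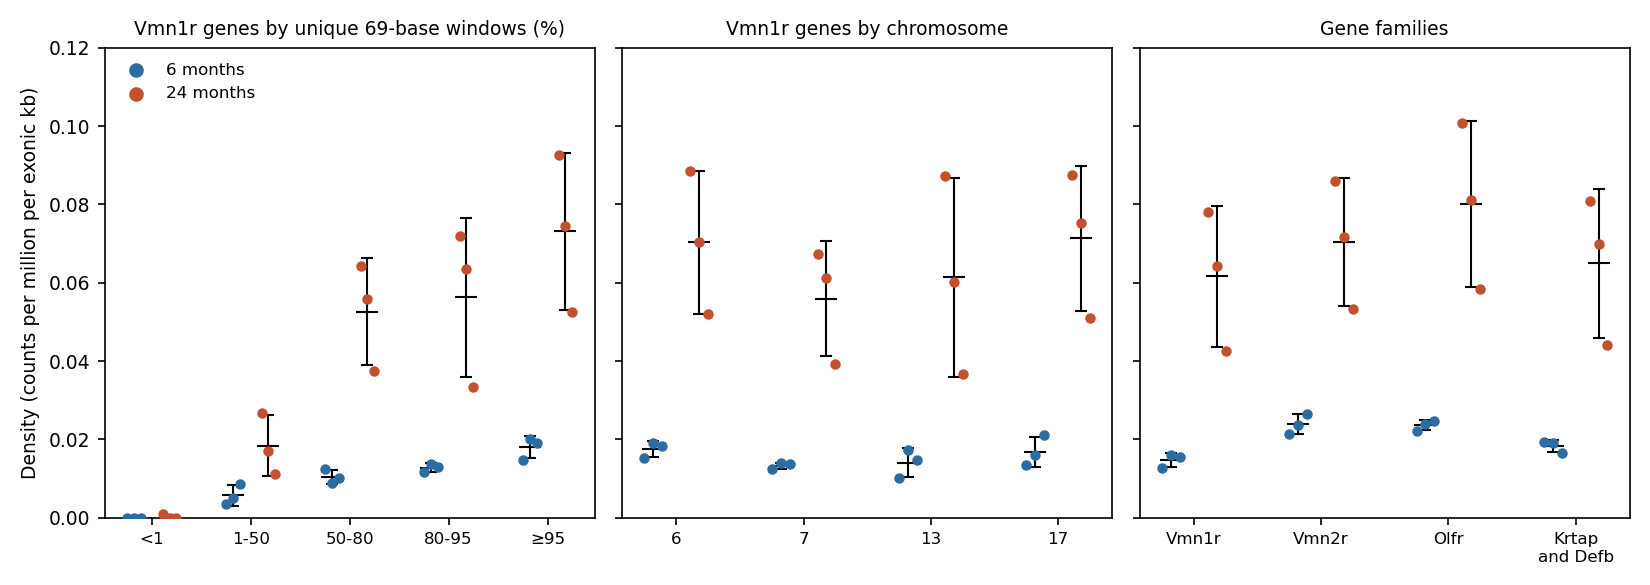
The 3 panels plot the density in CPM per exonic kb for Vmn1r genes by their share of unique 69-base windows, for Vmn1r genes by chromosome, and for 4 gene families, with 1 point per mouse (blue, 6 months; red, 24 months) and the mean ± SD of the 3 mice. The density climbs from near 0 in the class under 1% to 0.0732 at 24 months in the class of 95% or more, and within each chromosome and family the points of the 2 ages do not overlap.

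The genes with which V1R neurons signal were taken next. Trpc2, the channel that V1R and V2R neurons depend on, had 0 counts in all 6 libraries. Overlaps with other annotated genes were not looked at for these genes, so a count of 0 limits only the reads that could be assigned to Trpc2. Gng8, a G protein subunit of vomeronasal neurons, had 20, 31 and 17 counts at 6 months against 17, 18 and 21 at 24 months. Omp, found in mature olfactory and vomeronasal neurons, had 4, 13 and 11 against 18, 9 and 5, and Tfap2e, a transcription factor of basal vomeronasal neurons, had 2, 2 and 1 against 4, 7 and 1. The 4 markers together made up 0.776 to 1.26 CPM at 6 months and 0.823 to 1.32 at 24 months, so the ages overlapped. Of the 9 genes of the signalling list, 8 were tested. In the quasi-likelihood test 0 were higher and 0 lower at 10% FDR, beside 10.0% and 8.33% of all rows. Most of the others also serve in cortex. Gnai2 had 691, 874 and 1536 counts at 6 months against 1733, 1429 and 1013 at 24 months, and Kcnj3, a potassium channel subunit, had 3924, 3585 and 3064 against 2223, 2783 and 3403.

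Among the 6 genes of the neuronal identity list, 0 were higher and 2 lower at 10% FDR in the quasi-likelihood test, beside 10.0% and 8.33% of all rows. These were the transcription factors Meis2, with a log2 fold change of -0.33 ± 0.09 and an adjusted p of 0.0602, and Bcl11b, with -0.41 ± 0.14 and 0.0906, both also expressed in cortical neurons. Scaling by library totals left 0 lower. The partners of V2R neurons, 14 class I histocompatibility genes of the H2-M group and formyl peptide receptors beside Gnao1, had at most 11 counts in any library apart from Gnao1. Of the 15, 6 were tested, 0 were higher and 1 was lower at 10% FDR, the abundant Gnao1 (log2 fold change -0.31 ± 0.08, adjusted p = 0.0606), beside the same shares of all rows. By an unadjusted p under 0.05 of this test, 3 were higher (H2-M10.1, H2-M9 and H2-M1), beside 17.6% of all rows. These 3 had at most 2 counts in any 6-month library and reached 10 counts only with their 24-month libraries. A higher level at 24 months was thus in part built into their choice.

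The cortex was present by its markers in each library. Slc17a7, the vesicular glutamate transporter of excitatory neurons, had 6853 to 8061 counts at 6 months against 7041 to 7553 at 24 months, and Neurod6, a transcription factor of these neurons, had 6999 to 7075 against 4461 to 5854. Gad1 and Gad2 of inhibitory neurons summed to 476 to 538 CPM at 6 months and 363 to 551 at 24 months. Among markers of tissues near the vomeronasal pathway, Tbx21, Eomes and Doc2g of olfactory bulb projection neurons stood out in mouse 11 with 30, 29 and 110 counts, where the other 5 libraries had 5 to 13, 2 to 9 and 25 to 36. Mouse 11 also had the most Vmn1r counts of its age, 517, but in the largest library. Its Vmn1r level was 14.2 CPM beside 13.8 in mouse 17, and its summed TPM of 9.86 was below the 10.4 of mouse 17. The part of olfactory bulb cells in the Vmn1r values was not tested. The 5 markers of olfactory sensory neurons summed to 195 to 214 CPM at 6 months and 171 to 197 at 24 months, nearly all of it from Gnal, Adcy3 and Gng13. Of the 5, 0 were higher and 2 lower at 10% FDR in edgeR's quasi-likelihood test, beside 10.0% and 8.33% of all rows. The lower ones were Adcy3 (log2 fold change -0.40 ± 0.10, adjusted p = 0.0559) and Gnal (-0.38 ± 0.10, adjusted p = 0.0615). Stoml3 had 0, 0 and 2 counts against 5, 4 and 3 (log2 fold change 2.34 ± 0.96, unadjusted p = 0.0355 and adjusted p = 0.136 in the same test). It reached 10 counts only with its 24-month libraries, so that a higher level there was in part built into its choice.

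The 5 markers of male germ cells summed to 2.53 to 4.55 and 1.98 to 4.85 CPM, mostly from Ddx4 with 53 to 164 counts (log2 fold change -0.68 ± 0.33, adjusted p = 0.198 in the quasi-likelihood test). Prm1, Prm2 and Tnp1 had at most 6 counts. Acrv1, which encodes a protein of the sperm acrosome, had 0, 0 and 1 counts against 10, 8 and 6, so that the ages did not overlap. Of the 3 germ cell genes tested it alone was called at 10% FDR, where 10.0% of all rows were higher. Its log2 fold change was 4.11 ± 0.85, with an adjusted p of 0.0518 in the quasi-likelihood test. Acrv1 reached 10 counts only with its 24-month libraries, so that a higher level there was in part built into its choice. The part of such cells in the Vmn1r values was not tested.

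The breadth of the libraries moved with the family. Rows with at least 1 count numbered 33974, 35651 and 35172 in mice 10, 11 and 17, and 43561, 42717 and 40208 in mice 2, 4 and 5. The order of the 24-month mice, 2 before 4 before 5, was the same in the number of rows present, in the Vmn1r counts and in the Vmn1r density. That of the 6-month mice, 11 before 17 before 10, was also the same in these measures. The part of this difference between libraries in the Vmn1r values was not tested.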

How the data were processed

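RNA-seq of cortex from 6 mice was used. The authors made the libraries from 10 ng of total RNA with a low-input kit and read 75 bases from 1 end. They clipped 3 bases at each end with Trim Galore 0.6.4, mapped to GRCm38 (GENCODE vM23) with STAR 2.7.3a and counted exonic reads with featureCounts of Subread 2.0.0, whose stated options set a minimum mapping quality and also divide reads with several positions. The deposited counts are whole numbers, and the authors computed the deposited TPM from them and the exonic length. The TPM served for sums only. Positions, lengths and transcripts are those of GENCODE vM21, whose lengths matched those behind the TPM within 1% for every member with counts.

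Counts were tested with edgeR 4.0.16 (R 4.3.3) by the quasi-likelihood test over all rows with at least 10 counts, with DESeq2 1.42.0 as an alternative. DESeq2 left 5745 rows, 24 of them members, without an adjusted p, and these were not counted. Exact permutation tests and intervals (Clopper-Pearson, 95%) used scipy 1.17.1 in Python 3.11.15. Intervals and the floor of 3 counts cover counting error only. By the labels each sample is a separate mouse, and p-values measure the spread between these mice. Numbers of genes expected under a proportional spread assumed Poisson counts. The sharing of windows was computed among transcripts, not over the whole genome. The fit was tested on simulated data.

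Members named are the 10 with most counts, the 10 with the smallest p, the 5 with no 6-month count and most counts at 24 months, the first 5 without counts by symbol, and Vmn1r85 and Vmn1r89. A part for members with a negative fold change found none. The members, lists and tests were chosen with earlier results of these data known. The genes apart from the family ratio and the class of unique windows were chosen after the values were seen. Protein identity was replaced by identity of coding sequences. One marker of the lists is not reported here.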

Additional observations from a re-analysis of the deposited data

How the results depend on the processing

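No paired analysis was possible because the mice of the 2 ages share no replicate number. The count of members higher at 1% FDR, 0 in the quasi-likelihood test, was 1 with a minimum of 1 count over the 6 libraries, 51 in the likelihood ratio test, 37 in edgeR's exact test and 6 in the Wald test of DESeq2. Leaving out each mouse moved the 51 to between 17 and 80. The 87 members higher at 10% FDR became 32 with filterByExpr, which tests 37 members, 49 in the Wald test, and 0 to 99 with a mouse left out. The 111 with an unadjusted p under 0.05 became 36 with filterByExpr and 77 to 118 with a mouse left out. Under these settings, those with a mouse left out included, 0 members were lower at 1% or 10% FDR or by an unadjusted p under 0.05. For the differential expression of members the cause of these changes was not tested, beyond the smaller number of members or mice entered. Shares of all rows are not given for these settings, apart from the other tests at 1% FDR with all mice. The counts of members under the remaining settings thus cannot be set against all genes.

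The log2 difference of the family total, 2.03, lay between 1.83 and 2.05 under all 6 other scalings and choices of rows and between 1.83 and 2.27 with a mouse left out. With 3 mice against 3 the exact test cannot go below 0.1, and with 2 against 3 not below 0.2, so its p says nothing of stability. The difference in the number of genes present, 32, was 27.5 to 36.5, and that in the effective number, 8.67, was 4.66 to 13.9, with a mouse left out. For the density relative to Krtap and Defb the difference of 0.24 turned to -0.0665 without the 10 rows with most counts in each family (the cause was not tested) and was 0.10 to 0.36 with a mouse left out. Of 30 vomeronasal pathway genes 20 were tested, of which 0 were higher and 3 lower at 10% FDR (beside 10.0% and 8.33% of all rows). By an unadjusted p under 0.05 of the quasi-likelihood test, 3 were higher and 4 lower (beside 17.6% and 13.1%). The 3 higher ones reached 10 counts only with their 24-month libraries. With library totals 0 pathway genes were lower at 10% FDR, and 5 were higher and 0 lower at an unadjusted p under 0.05. In the likelihood ratio test 3 were higher at 10% FDR and 5 at an unadjusted p under 0.05. With a mouse left out 0 to 2 were higher and 0 to 3 lower at 10% FDR, and 0 to 4 each at an unadjusted p under 0.05. Shares of all rows for these other settings of the pathway genes are not given here. The planned exclusion of members with nearly identical proteins was not run, as no protein table was used. The exclusion by coding sequence and the class of unique windows were added after seeing the data. Depth limits most members, whose median count at 6 months was 1.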
